A study of Mus musculus with 18 samples.

Results

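The 8 genes Chga, Chgb, Scg2, Scg3, Scg5, Pcsk1, Pcsk1n and Cpe, which encode granins and the enzymes and helper proteins that turn prohormones into hormones, were followed across the single-cell libraries of a study of Setdb1, a histone H3 lysine 9 methyltransferase, in intestinal stem cells. They were taken by name, as members of a gene family and its pathway, from 32286 counted features, and all 8 had reads in every Lgr5+ library. The libraries came from GFP-sorted ileal epithelial cells of C57Bl6 mice aged 60-65 days, taken 5 days after a single injection of 70 mg/kg tamoxifen. Lgr5+WT mice carried Lgr5-GFP-CreERT2 alone and Lgr5+Setdb1KO mice carried it with Setdb1lox/lox, whereas WT nTnG and Setdb1-KO nTnG mice carried in addition nTnG, a reporter that keeps GFP in the descendants of cells in which Cre has acted. The first pair is called Lgr5+ below and the second lineage-traced. Every group thus shared the Cre knock-in and the tamoxifen, and there were 2 libraries per group and 8 in all.

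Granins are acidic proteins that condense in the trans-Golgi network and help to form the dense-core granules of endocrine cells, and several of them are themselves cut into active peptides. In the same granules the convertase encoded by Pcsk1 cleaves prohormones at pairs of basic residues, Cpe trims the basic residues left at the cut ends, Pcsk1n encodes proSAAS, an inhibitor of that convertase, and Scg5 encodes a chaperone of the related convertase PCSK2. In the gut these genes are known from enteroendocrine cells, the hormone-secreting cells of the epithelium, whose serotonin-producing members are the enterochromaffin cells and whose other members make peptides such as ghrelin, cholecystokinin, GIP, glucagon-like peptides and somatostatin.

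The library is a 3′ count of unique molecular identifiers (UMIs, 1 per captured RNA molecule), and the 8 libraries held between 16881518 and 81876035 UMIs over all barcodes. After limits on UMIs and mitochondrial share, 4768 and 6133 barcodes were kept for Lgr5+WT, 2894 and 11423 for Lgr5+Setdb1KO, 7860 and 3882 for WT nTnG, and 4816 and 10239 for Setdb1-KO nTnG, with medians of 4686-9336 UMIs in the Lgr5+ and 961-2085 in the lineage-traced libraries. Any pair of libraries shared 3-34 barcodes, at most 0.449% of the smaller one. WT nTnG replicate 2 stood apart, since 47.0% of its kept barcodes carried the Paneth cell profile and 13 were enteroendocrine-like, and lineage-traced tests on enteroendocrine-like cells are therefore given with and without it. The Lgr5 knock-in is silent in some crypts and the gate let non-stem cells through, and the labels give the cell type as stem cells although enteroendocrine-like cells were found in every library. The paper counts the mature enteroendocrine cells of the Lgr5+ sort among clusters that came along without GFP. Setdb1 itself gave 11.3 and 9.93 CPM (UMIs per 1000000 UMIs of the same cells) over all kept barcodes in Lgr5+WT against 5.32 and 6.21 in Lgr5+Setdb1KO, and 6.12 and 4.21 in WT nTnG against 10.4 and 7.85 in Setdb1-KO nTnG. The log2 difference was -0.85 in the Lgr5+ libraries (edgeR, adjusted p = 0.0470) and 0.24 in the lineage-traced ones (edgeR, adjusted p = 0.603). A 3′ count does not read the deleted exon, so these values do not check the deletion, and below KO stands for the label. The paper reports that PCR on sorted GFP+ cells verified the loss of the exon, with and without the nTnG reporter.

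Barcodes were called enteroendocrine-like from 29 markers that include none of the 8 genes, and 1389 of 52015 kept barcodes met the rule. In the Lgr5+ libraries all 14 transcription factors and other markers without a hormone role had UMIs in the enterochromaffin-like and the peptide-hormone-like barcodes. These 14 helped to set the enteroendocrine-like class, so their UMIs there follow in part from the rule and are no separate check of it. Among the enteroendocrine-like barcodes, 327 with at least 2 UMIs of Tph1, the enzyme that commits tryptophan to serotonin, were called enterochromaffin-like. Another 594 with 0 Tph1 UMIs and at least 3 UMIs of peptide hormones, at 20 or more per 10000 UMIs, were called peptide-hormone-like. The remainder were called other enteroendocrine-like. In the Lgr5+ libraries 23, 50, 68 and 149 barcodes were enterochromaffin-like and 61, 92, 104 and 229 peptide-hormone-like, in the order WT 1, WT 2, KO 1 and KO 2, which is kept below. The cut was not sharp: in the Lgr5+ libraries 123 enteroendocrine-like barcodes lay within 2-fold of it and 143 lay just outside, and in the lineage-traced libraries 65 and 512.

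The promoters of the genes are shown first because several share a letter pattern at a similar place. The 250 bases upstream of the start of transcription were read from a set of RefSeq promoters (GRCm38.p6). The set used held 7 of the 8 genes, all but Cpe. The sequences below run 5′ to 3′ on the gene's own strand. Capitals mark the cyclic AMP response element, TGACGTCA, or its half-site TGACG on the printed strand, which overlaps the full element. The windows are chr12:102554691-102554940 on the plus strand for Chga, chr2:132781392-132781641 on the plus strand for Chgb, chr1:79440027-79440276 on the minus strand for Scg2 and chr13:75089607-75089856 on the plus strand for Pcsk1.
Chga: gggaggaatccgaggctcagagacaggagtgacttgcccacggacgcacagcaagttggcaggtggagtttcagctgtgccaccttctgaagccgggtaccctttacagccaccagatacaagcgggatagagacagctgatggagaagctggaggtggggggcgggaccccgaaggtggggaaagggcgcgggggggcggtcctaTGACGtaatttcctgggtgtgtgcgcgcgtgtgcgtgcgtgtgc
Chgb: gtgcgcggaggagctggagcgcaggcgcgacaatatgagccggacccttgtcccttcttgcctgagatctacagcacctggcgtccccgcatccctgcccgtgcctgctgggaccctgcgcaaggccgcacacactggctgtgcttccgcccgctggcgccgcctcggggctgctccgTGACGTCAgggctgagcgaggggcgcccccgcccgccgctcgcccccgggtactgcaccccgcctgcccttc
Scg2: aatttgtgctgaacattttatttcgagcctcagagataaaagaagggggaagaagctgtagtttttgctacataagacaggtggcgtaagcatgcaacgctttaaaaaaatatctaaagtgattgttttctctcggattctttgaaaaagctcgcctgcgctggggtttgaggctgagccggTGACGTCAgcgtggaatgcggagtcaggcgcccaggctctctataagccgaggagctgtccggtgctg
Pcsk1: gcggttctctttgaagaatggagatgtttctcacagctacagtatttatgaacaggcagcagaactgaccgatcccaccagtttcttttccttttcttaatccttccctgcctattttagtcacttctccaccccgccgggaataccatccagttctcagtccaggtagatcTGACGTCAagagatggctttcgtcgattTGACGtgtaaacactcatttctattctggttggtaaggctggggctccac

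The full element lay 72-65 bases upstream of the start in Chgb, 68-61 in Scg2 and 78-71 in Pcsk1, so 3 of the 7 windows held it, against 1.62% of 27025 promoters of the same length. The half-site, searched on both strands, was in 6 of 7 (all but Pcsk1n), 44-40 bases upstream in Chga, against 17.9% of all promoters. The TATA box TATAAA, searched on the gene strand, was in 0 of 7 (8.12% of all), the E-box CANNTG in 5 of 7 (66%) and the GC box GGGCGG in 4 of 7 (32.9%), the last pair on both strands. These are matches of letters, and no binding was measured on them. Of the 3 genes with the full element, Chgb and Pcsk1 were higher in enterochromaffin-like than in peptide-hormone-like cells and Scg2 lower, as described next.

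In the Lgr5+ libraries most of the transcripts of each gene came from the enteroendocrine-like barcodes. These were 1141 of 25218 barcodes, and they held 97.0% of the Scg2 UMIs, 94.2% for Cpe, 93.9% for Scg3, 92.8% for Pcsk1n, 91.3% for Scg5, 89.4% for Chgb and 84.2% for Chga. The lowest share was for Pcsk1, at 72.6%. In the more shallow lineage-traced libraries the share ran from 24.5% (Pcsk1) to 72.5% (Cpe) over the 4 libraries together. Together the 8 genes made up 5.19, 7.39, 6.83 and 6.90% of all UMIs of the enterochromaffin-like cells in the 4 Lgr5+ libraries and 1.12, 1.08, 0.958 and 0.991% in the peptide-hormone-like cells, so the classes did not overlap.

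**Figure D1:**
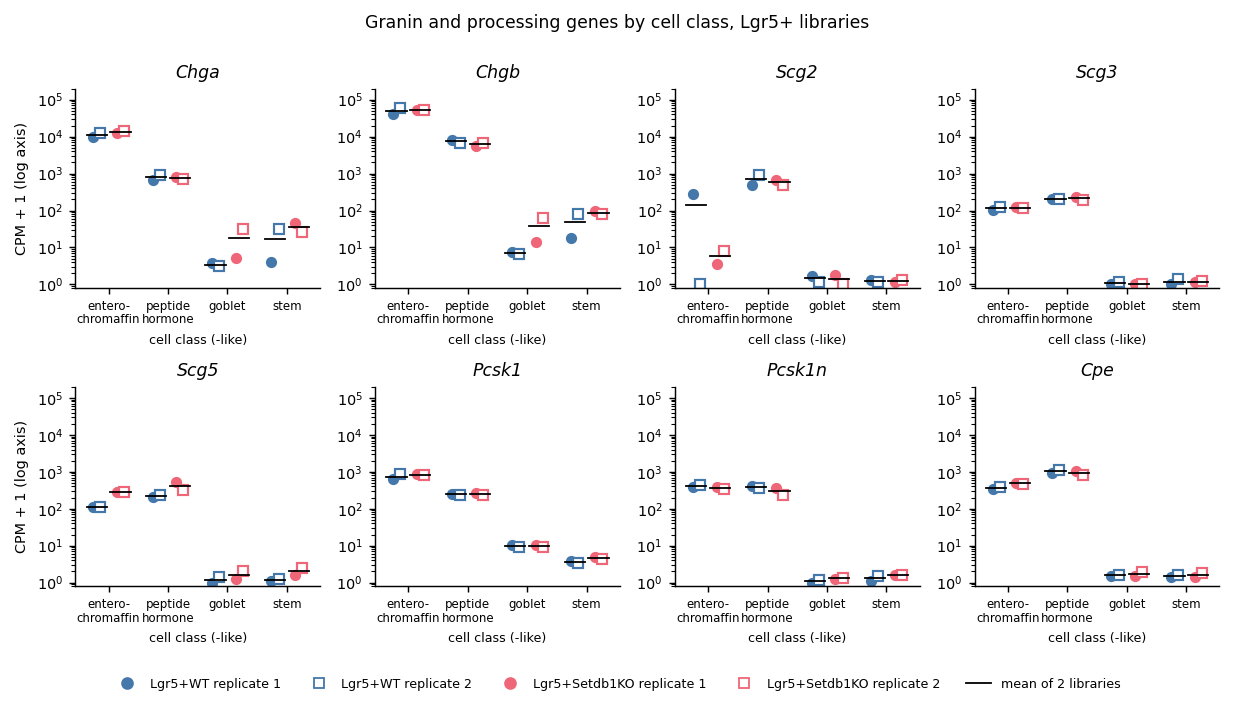
CPM + 1 (UMIs per 1000000 UMIs, log axis) of each of the 8 genes in 4 classes of cells of the Lgr5+ libraries, with filled circles for replicate 1, open squares for replicate 2, blue for Lgr5+WT, red for Lgr5+Setdb1KO and a black line at the mean of the 2 libraries. Chga, Chgb and Pcsk1 stand highest in enterochromaffin-like cells, and Scg2 stands in peptide-hormone-like cells. In goblet-like and stem-like cells Chgb reaches 94.7 CPM and Chga 45.5 CPM, and the other genes reach at most 9.42 CPM (Pcsk1).

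Chga, the granin most used to mark endocrine cells, stood at 9768, 12420, 12926 and 14339 CPM in enterochromaffin-like cells and at 683, 901, 785 and 700 CPM in peptide-hormone-like cells. It had a UMI in 99.3-100% of the former and 65.9-77.2% of the latter, against 0.966-2.29% of stem-like cells. The 7422 stem-like cells held 1052 Chga UMIs, at 2.96-45.5 CPM, and droplets without a cell, with fewer than 100 UMIs, held 40.7-111 CPM. Outside the enteroendocrine-like class 55 barcodes of the Lgr5+ libraries counted as granin-rich, by a cut of 1% of UMIs. Of these, 35 did not meet several classes at once. The part of free RNA and of enteroendocrine cells missed by the rule in the stem-like level was not tested. Among the classes named here, the order by the median of the 4 libraries was enterochromaffin-like (12673 CPM), other enteroendocrine-like (1261), peptide-hormone-like (742), stem-like (27.8) and goblet-like (3.51). The last pair overlapped in range, while the first 3 classes did not.

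Chgb, the second granin of these granules, was the most abundant of the 8 by UMI, at 40288, 59564, 53261 and 52671 CPM in enterochromaffin-like and 8041, 6778, 5674 and 6881 CPM in peptide-hormone-like cells. Every enterochromaffin-like value lay above every peptide-hormone-like value. The comparison of the classes, with each library as a block, called 12.1% of 6340 genes at an adjusted p of 0.05, 6.58% higher and 5.49% lower in enterochromaffin-like cells. Of the 8 genes, 3 passed as higher, 4 as lower and 1 did not pass. Fold changes are log2 ratios after TMM scaling, and adjusted p-values, by the Benjamini-Hochberg method over every gene tested, come from the quasi-likelihood test of edgeR. Chga was higher by 3.95 ± 0.11 (SE, log2; 15.4-fold; adjusted p = 1.5e-16) and Chgb by 2.84 ± 0.11 (7.18-fold; 9.1e-14). Peptide hormones alone took 82288-148212 CPM of the peptide-hormone-like cells. The median depth was 2240-5011 UMIs in enterochromaffin-like cells.

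Pcsk1, the convertase, gave 618, 848, 846 and 802 CPM in enterochromaffin-like and 249.97, 242, 268 and 241 CPM in peptide-hormone-like cells. The classes were fully apart, and the difference was 1.58 ± 0.11 on the log2 scale (3.00-fold; edgeR, adjusted p = 2.1e-09). Pcsk1n, its inhibitor, did not follow it, with 387, 438, 390 and 334 CPM in enterochromaffin-like and 405, 371, 368 and 236 CPM in peptide-hormone-like cells. The ranges of Pcsk1n overlapped and its difference of 0.14 ± 0.13 did not pass (edgeR, adjusted p = 0.581).

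The genes that were lower in enterochromaffin-like cells included Scg2, the precursor of secretoneurin, with 496, 937, 688 and 504 CPM in peptide-hormone-like cells and 277, 0, 2.60 and 6.997 CPM in enterochromaffin-like cells. The 277 CPM of Lgr5+WT replicate 1 were 30 UMIs, all in 1 of its 23 enterochromaffin-like cells, and the other libraries had 0, 1 and 3 UMIs. The difference was -4.29 ± 0.52 (log2; edgeR, adjusted p = 4.1e-06) and without Lgr5+WT replicate 1 it was -7.32, a size that rests on few UMIs. Cpe, the carboxypeptidase, gave 926, 1129, 1040 and 835 CPM in peptide-hormone-like and 350, 393, 510 and 471 CPM in enterochromaffin-like cells. The classes did not overlap, and Cpe was lower in the latter, with a difference of -1.21 ± 0.12 (edgeR, adjusted p = 1.5e-07).

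Scg3, a granin that helps to carry other granins to the granule membrane, stood at 204, 203, 229 and 194 CPM in peptide-hormone-like cells and at 101, 124, 120 and 119 CPM in enterochromaffin-like cells, and again the classes were apart. Its difference was -0.90 ± 0.15 (edgeR, adjusted p = 3.1e-04). Scg5 gave 201, 228, 529 and 318 CPM in peptide-hormone-like and 111, 112, 281 and 287 CPM in enterochromaffin-like cells, lower in every library but with ranges that overlapped between libraries. The Scg5 difference of -0.72 ± 0.16 passed (edgeR, adjusted p = 0.00347), but not without Lgr5+Setdb1KO replicate 1 (-0.53, adjusted p = 0.135) nor with DESeq2 (adjusted p = 0.0584).

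In the lineage-traced libraries the enterochromaffin-like cells numbered 9, 2, 4 and 22 and the peptide-hormone-like cells 23, 2, 25 and 58, and 395 genes could be tested, of which 15.7% passed, 12.4% as higher and 3.29% as lower. Of the 4 members tested, 3 were higher in enterochromaffin-like cells. Chga stood at 13741, 30932, 7852 and 7652 CPM against 743, 0, 820 and 300.2, Chgb at 26355, 38665, 25882 and 25443 against 3296, 388, 1078 and 2232, and Pcsk1 at 846, 407, 679 and 397 against 129, 0, 164 and 85.0. For these 3 genes the classes did not overlap, and the values of WT nTnG replicate 2 rest on 2 cells in each class. The differences were 4.69 ± 0.36 for Chga (edgeR, adjusted p = 4.0e-34), 4.33 ± 0.38 for Chgb (1.2e-26) and 2.65 ± 0.55 for Pcsk1 (2.9e-05), and without WT nTnG replicate 2 they were 4.26 (4.7e-13), 3.87 (7.5e-12) and 2.46 (1.3e-04). Pcsk1 did not pass with no filter on low counts (1.605, edgeR, adjusted p = 0.0672). It fell under the filter, and so was not tested, without either Setdb1-KO nTnG library, among other settings. Pcsk1 had a test in only 8 of the 12 alternatives in which Chga had one. Cpe, with 1198, 0, 582 and 460 against 711, 388, 961 and 300.2 CPM, did not pass (0.65 ± 0.37, edgeR, adjusted p = 0.275, and 0.52, 0.342 without WT nTnG replicate 2). Scg2, Scg3, Scg5 and Pcsk1n fell under the filter on low counts and were not tested in this fit.

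The other genes of the secretory pathway were described from 3 lists. Of 16 enteroendocrine transcription factors, all tested between the classes in the Lgr5+ libraries, 6 were higher in enterochromaffin-like cells, among them Lmx1a (5.89 ± 0.33), Fev (1.33 ± 0.15) and Neurog3 (1.48 ± 0.34), and 4 were lower, among them Isl1 (-6.46 ± 0.25) and Pax6 (-1.62 ± 0.18). Over all 6340 genes tested, 6.58% were higher and 5.49% lower. The median of the list was 0.27 against 0.00 for all genes. Some of these factors, Isl1 and Pax6 included, are among the markers that set the enteroendocrine-like class as a whole. Of 24 granule and exocytosis genes tested, 6 were higher, among them the monoamine transporters Slc18a1 (3.12 ± 0.22) and Slc18a2 (5.90 ± 0.62), the vesicle GTPase Rab3c (4.71 ± 0.19) and the fusion protein Snap25 (1.75 ± 0.20). In that list 2 were lower, the calcium sensor Scgn (-4.45 ± 0.27) and the synaptotagmin Syt7 (-1.74 ± 0.32), and the list median was 0.11. Slc18a1 is also among the markers that set the enteroendocrine-like class as a whole. Of 10 other prohormone processing genes tested, 0 were higher and 2 lower, the peptide-amidating enzyme Pam (-0.64 ± 0.14) and the carboxypeptidase subunit Cpn1 (-1.30 ± 0.27), with a median of -0.21.

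Within the enteroendocrine-like cells of the Lgr5+ libraries, each barcode was also grouped by the hormone or enterochromaffin gene with most UMIs, which left 8 groups of at least 20 barcodes. In pooled levels Chgb stood at 10273 CPM in the 108 Gip-led, 6265 in the 55 Sst-led, 4491 in the 181 Cck-led and 4435 in the 50 Gcg-led barcodes, and at 400 CPM in the 118 Ghrl-led barcodes. Chga ran otherwise, with 1520 CPM in Ghrl-led and 190 CPM in Gip-led barcodes. In the 163 Sct-led barcodes both were higher, at 2896 CPM for Chga and 16416 CPM for Chgb, and in the 292 Tac1-led they reached 12454 and 51593 CPM. Scg2 was at 898 CPM in Gcg-led, 747 in Cck-led, 513 in Gip-led, 245 in Ghrl-led, 91.1 in Sst-led and 1.90 CPM in Tac1-led barcodes. Scg5 was at 468 CPM in Gip-led and 145 CPM in Sct-led, and Cpe at 1280 CPM in Gip-led and 316 CPM in Sct-led barcodes, as pooled levels. The order of the groups differed between libraries, and among the peptide-led groups Gcg, Cck, Gip, Sst and Ghrl only the last stood apart for Chgb in each, since in Lgr5+WT replicate 2 the Sst-led barcodes (14868 CPM) lay above the Gip-led (9036 CPM). In Lgr5+Setdb1KO replicate 2 Scg5 was at 387 CPM in Gip-led and 399 CPM in Sst-led barcodes, and in Lgr5+WT replicate 1 Cpe was at 1271 CPM in Gcg-led and 1106 CPM in Gip-led barcodes.

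**Figure D2:**
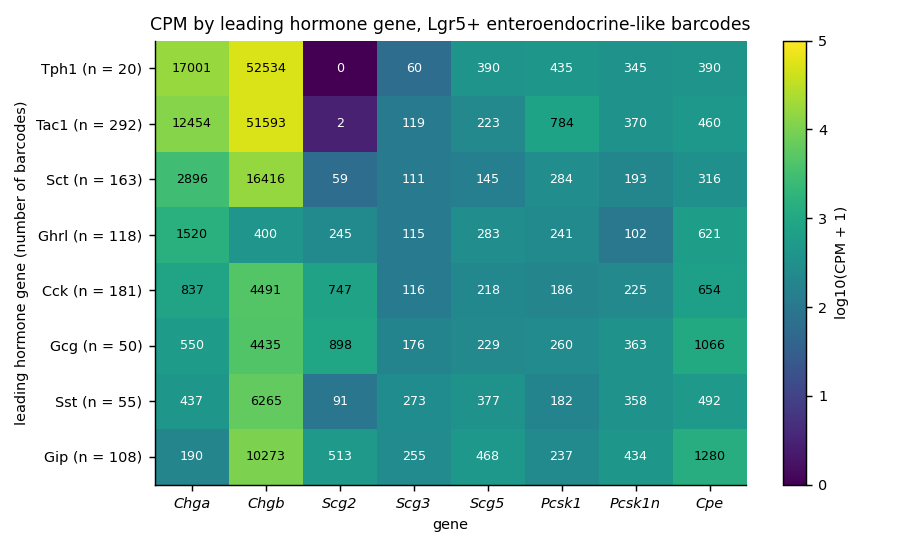
Heat map of the pooled level, in CPM, of the 8 genes (columns) in 8 groups of enteroendocrine-like barcodes of the 4 Lgr5+ libraries named by the hormone or enterochromaffin gene with most UMIs (rows, with the number of barcodes), coloured by log10(CPM + 1). Chgb is lowest in the Ghrl-led group, Chga lowest in the Gip-led group and Scg2 close to 0 in the Tph1-led and Tac1-led groups.

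The low Chgb of the Ghrl-led cells was seen in each library. With 11, 27, 20 and 60 barcodes, they held 290, 765, 475 and 201 CPM of Chgb, while the Gip-led cells of the same libraries, with 16, 17, 28 and 47 barcodes, held 11209, 9036, 9682 and 11077 CPM. Across the Gcg-led, Cck-led and Sst-led groups of single libraries Chgb ran from 2721 to 14868 CPM, so that no Ghrl-led value reached any other group. Chga was at 1685, 1668, 1893 and 1168 CPM in Ghrl-led and at 257, 256, 116 and 220 CPM in Gip-led cells, again with no overlap. A comparison of Ghrl-led with the Gcg-led, Cck-led, Gip-led and Sst-led cells together, chosen after these values were seen, called 6.17% of 4055 genes, 3.03% as higher and 3.13% as lower, and 4 of the 8 members. Lower in Ghrl-led cells were Chgb (-3.95 ± 0.21, log2; edgeR, adjusted p = 4.8e-16), Pcsk1n (-1.56 ± 0.20; 9.8e-07) and Scg2 (-1.46 ± 0.24; 4.5e-05), whereas Chga was higher by 1.38 ± 0.15 (2.1e-08).

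Across the 8 groups the level of each gene was set beside those of 4687 genes, as a description with no test, since the groups share libraries. By Pearson's r of log2(CPM + 10), the gene most like Chga was Itpr3 (r = 0.97), most like Chgb Dcbld1 (0.97), most like Scg3 Gsto1 (0.97), most like Pcsk1n Rap1b (0.94), most like Pcsk1 Ick (0.94) and most like Scg5 Man2b1 (0.93). Scg2 was most like Leprotl1 (0.95), followed by Cck (0.93), a hormone gene that was itself used to make the groups. Cpe was most like 1110065P20Rik (0.95). Among the members, Chga and Pcsk1 ran together (r = 0.82), Scg2 and Cpe too (0.76), and Chga and Scg2 ran opposite (-0.87), each over 8 groups.

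The comparison of genotypes over all kept barcodes asked how these genes differed with the Setdb1lox/lox genotype in the sorted population. In this sum, fewer cells of a type and less RNA per cell cannot be told apart. The enteroendocrine-like share of kept barcodes was 2.94% (95% Clopper-Pearson interval 2.48-3.46) and 3.42% (2.98-3.91) in Lgr5+WT and 8.12% (7.15-9.18) and 4.87% (4.48-5.28) in Lgr5+Setdb1KO. In the lineage-traced libraries it was 0.687% (0.517-0.895) and 0.335% (0.178-0.572) in WT nTnG and 1.14% (0.861-1.48) and 1.23% (1.03-1.46) in Setdb1-KO nTnG. The intervals cover counting error only. Neither pair of groups overlapped, with mean shares 2.04-fold and 2.32-fold higher in KO, and the exact two-sided permutation test gave p = 0.333 for each, the smallest that 2 against 2 libraries allow.

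**Figure D3:**
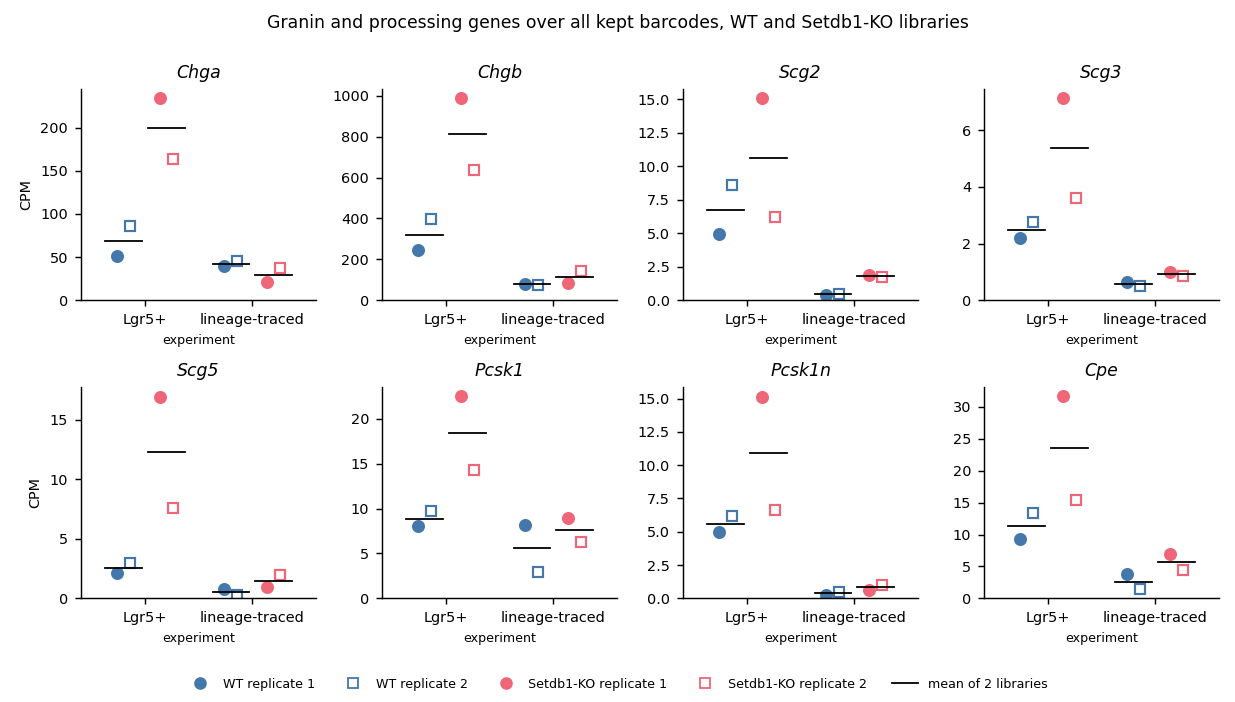
Level of each of the 8 genes over all kept barcodes, in CPM, in each of the 8 libraries, grouped as Lgr5+WT, Lgr5+Setdb1KO, WT nTnG and Setdb1-KO nTnG, with filled circles for replicate 1, open squares for replicate 2 and a line at the mean of the 2 libraries. In the Lgr5+ libraries both KO values stand above both WT values for 7 genes, Scg2 being the exception, and in the lineage-traced libraries Chga stands lower in KO.

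Over all kept barcodes of the Lgr5+ libraries 1.34% of 13662 genes passed, 0.812% as higher and 0.527% as lower in KO, and of the 8 members 1, Scg5, passed as higher and 0 as lower. Scg5, the chaperone of PCSK2, stood at 2.10 and 2.94 CPM in Lgr5+WT and at 16.95 and 7.61 CPM in Lgr5+Setdb1KO, with no overlap. Its difference was 2.24 ± 0.37 (log2; edgeR, adjusted p = 0.0440), with adjusted p = 0.126 without Lgr5+WT replicate 1 and 0.0728 without Lgr5+WT replicate 2. The Scg5 call was also lost with no filter on low counts, with the higher UMI minimum and with the replicate block. Chga stood at 51.2 and 85.9 against 235 and 164 CPM and Chgb at 245 and 398 against 990 and 638 CPM, both without overlap. Their differences of 1.52 ± 0.27 (adjusted p = 0.0538) and 1.32 ± 0.28 (0.0765) did not pass.

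The processing enzymes were next. Pcsk1 stood at 8.05 and 9.69 CPM in Lgr5+WT and at 22.6 and 14.2 CPM in Lgr5+Setdb1KO (1.03 ± 0.20; edgeR, adjusted p = 0.0679), and Cpe at 9.35 and 13.4 against 31.6 and 15.4 CPM (1.01 ± 0.32; 0.174). Neither passed, although no KO value lay below a WT value. Scg3, at 2.18 and 2.77 against 7.14 and 3.62 CPM (1.07 ± 0.31; 0.149), and Pcsk1n, at 4.99 and 6.15 against 15.1 and 6.64 CPM (0.92 ± 0.34; 0.229), did not pass either. Scg2 alone overlapped, at 4.91 and 8.61 against 15.1 and 6.21 CPM (0.59 ± 0.41; 0.511). For each of the 8 genes Lgr5+Setdb1KO replicate 1, which also had the higher share of enteroendocrine-like cells, gave the highest value of the 4 libraries. Without Lgr5+Setdb1KO replicate 2, the library with most barcodes, 382 of 14072 genes passed as higher and with them 7 of the 8 members, all but Scg2 (edgeR, adjusted p of Pcsk1 = 0.00519, Pcsk1n = 0.00704, Cpe = 0.00975, Chga = 0.0106, Scg3 = 0.0146 and Chgb = 0.0182). Chga and Chgb also passed without Lgr5+WT replicate 2 (0.0147 and 0.0344), where 51 of 14071 genes were higher. DESeq2 called 311 of 13662 genes as higher and 4 members, Chga (0.0326), Scg3 (0.0286) and Pcsk1 (5.9e-05) beside Scg5.

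Of the 3 lists, 1 of 16 transcription factors passed as higher in Lgr5+Setdb1KO (Lmx1a, 1.94, edgeR, adjusted p = 0.0313), with a list median of 1.13 where that of all genes was -0.01. Of 28 granule and exocytosis genes tested, 1 was higher (Rab3c, 1.81, adjusted p = 0.0355; median 0.79), and of 14 other processing genes 0 passed in either direction (median 0.00). Within peptide-hormone-like cells Neurog3, the factor that starts the enteroendocrine fate, was higher in Lgr5+Setdb1KO (2.51, edgeR, adjusted p = 0.0329). Neurog3 is itself among the markers that set the enteroendocrine-like class, so this call is not independent of the class rule.

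Within the enteroendocrine-like cells of the Lgr5+ libraries 0.127% of 8692 genes passed between the genotypes, 0.0805% as higher and 0.046% as lower in KO, and 0 of the 8 members by edgeR, where 569 of all genes had an unadjusted p under 0.05. DESeq2 called 1 member, Scg5. Scg5 stood at 111 and 135 CPM in Lgr5+WT and at 332 and 233 CPM in Lgr5+Setdb1KO. The genotypes did not overlap, and the difference was 1.17 ± 0.20 (edgeR, adjusted p = 0.0578; DESeq2, 0.0376). Over 11 alternative settings its adjusted p ran on both sides of 0.05, up to 0.478 without Lgr5+WT replicate 1 and down to 1.1e-08 without Lgr5+Setdb1KO replicate 2. Chga, at 2369 and 3516 against 4324 and 4775 CPM, did not overlap but did not pass (0.61 ± 0.26, adjusted p = 0.719).

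In the Lgr5+ libraries the direction of Scg5 was the same in each class. In enterochromaffin-like cells it was at 111 and 112 CPM in Lgr5+WT and 281 and 287 CPM in Lgr5+Setdb1KO, in peptide-hormone-like cells at 201 and 228 against 529 and 318 CPM, and in other enteroendocrine-like cells at 24.1 and 28.4 against 77.4 and 86.2 CPM. In all 3 classes both KO values lay above both WT values. In droplets without a cell Scg5 also lay higher in KO, at 1.45 and 1.34 against 7.74 and 8.66 CPM, and the part of such free RNA in the class values was not tested. In the enteroendocrine-like cells of the lineage-traced libraries Scg5 was at 103 and 107 CPM in WT nTnG and 52.8 and 104 CPM in Setdb1-KO nTnG. These values were 8, 2, 6 and 34 UMIs, and those of WT nTnG replicate 2 lay in 7.69% of 13 cells. In these libraries Scg5 fell under the filter on low counts and was not tested in the main fit. The test within enterochromaffin-like cells called 0.0442% of 4527 genes (0.0221% higher and 0.0221% lower), that within peptide-hormone-like cells 0.0655% of 6110 genes (0.0491% higher and 0.0164% lower), and each called 0 of the members by edgeR, with Scg5 at 1.34 ± 0.27 (edgeR, adjusted p = 0.158) in enterochromaffin-like and 1.01 ± 0.26 (0.424) in peptide-hormone-like cells. Without Lgr5+Setdb1KO replicate 2 both passed (0.00607 and 1.8e-05), and in enterochromaffin-like cells also without Lgr5+Setdb1KO replicate 1 (5.4e-04). The genotype by class interaction called 0.0158% of genes and 0 of the 8 members by edgeR. It was 0.37 ± 0.37 for Scg5 (adjusted p = 0.947), 0.49 ± 0.21 for Cpe (0.895) and, resting on the few Scg2 UMIs of enterochromaffin-like cells, -4.15 ± 1.37 for Scg2 (0.895). Without Lgr5+WT replicate 1 the Scg2 interaction turned to 4.80, and it passed without Lgr5+WT replicate 2 (-5.99) or Lgr5+Setdb1KO replicate 1 (-3.40).

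**Figure D4:**
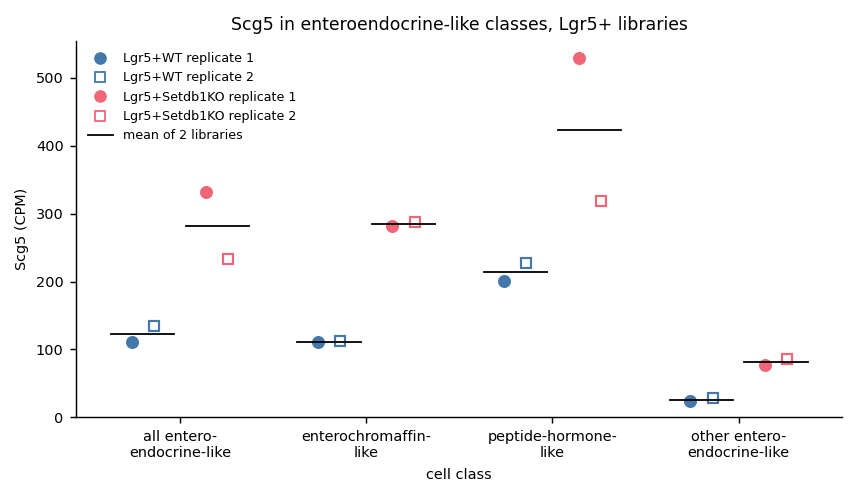
Level of Scg5, in CPM, in all enteroendocrine-like cells and in their enterochromaffin-like, peptide-hormone-like and other parts, for the 2 Lgr5+WT and the 2 Lgr5+Setdb1KO libraries, with filled circles for replicate 1, open squares for replicate 2 and a line at the mean. Both KO values lie above both WT values in each class, from 24.1 and 28.4 against 77.4 and 86.2 in other enteroendocrine-like cells to 201 and 228 against 529 and 318 in peptide-hormone-like cells.

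Other members were compared between the genotypes within a class. In enterochromaffin-like cells Chga was at 9768 and 12420 CPM in Lgr5+WT and 12926 and 14339 CPM in Lgr5+Setdb1KO, and in peptide-hormone-like cells at 683 and 901 against 785 and 700 CPM. Scg3 overlapped between genotypes in both classes, Pcsk1n overlapped in enterochromaffin-like cells and lay narrowly lower in KO in peptide-hormone-like cells (405 and 371 against 368 and 236 CPM), and Cpe lay higher in KO in enterochromaffin-like cells (350 and 393 against 510 and 471 CPM) and overlapped in peptide-hormone-like cells. In other enteroendocrine-like cells Scg2 was at 24.1 and 39.0 CPM in Lgr5+WT (7 and 11 UMIs) and at 0 in both Lgr5+Setdb1KO libraries. The WT UMIs lay in only 1.79% of 56 and 2.94% of 68 cells, so these values rest on very few cells. In the KO libraries 3 UMIs would be 7.74 and 5.28 CPM. Cpe in the same class was at 124 and 153 against 92.9 and 111 CPM. No test was run in that class.

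Over all kept barcodes of the lineage-traced libraries 8.73% of 12205 genes passed, 1.54% as higher and 7.19% as lower in KO. Of the 7 members tested 1, Scg2, passed as higher and 0 as lower. Scg2 stood at 0.366 and 0.495 CPM in WT nTnG and 1.89 and 1.72 CPM in Setdb1-KO nTnG, which were 7, 4, 17 and 46 UMIs. The groups did not overlap, and the difference was 1.63 ± 0.46 (log2; edgeR, adjusted p = 0.0441). It did not pass with DESeq2 (0.259), nor without WT nTnG replicate 1 (0.768), WT nTnG replicate 2 (0.0963) or Setdb1-KO nTnG replicate 2 (0.182).

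Chga ran the other way in these libraries, at 39.3 and 45.7 CPM in WT nTnG and 20.6 and 37.8 CPM in Setdb1-KO nTnG, with no overlap. Its difference did not pass (-1.02 ± 0.33, edgeR, adjusted p = 0.0816), though it passed in 3 of 9 alternatives. Without Setdb1-KO nTnG replicate 2 the difference was -1.72. The other genes tested were at 81.3 and 75.8 against 83.3 and 142 CPM for Chgb, 0.627 and 0.495 against 1.00 and 0.860 CPM for Scg3, 0.784 and 0.247 against 1.00 and 1.94 CPM for Scg5, 8.15 and 2.97 against 8.89 and 6.28 CPM for Pcsk1 and 3.76 and 1.48 against 6.89 and 4.45 CPM for Cpe. None of these passed. In the lists, 4 of 12 transcription factors tested were higher (Isl1, 1.63, Insm1, 1.27, Neurod1, 1.12, and Neurog3, 1.06; median 0.89). Of 18 granule genes 1 was higher (Cplx2, 1.01) and 1 lower (Slc18a1, -1.30), with a median of -0.38, and of 14 other processing genes 1 was lower (Pcsk5, -0.91) with a median of -0.33.

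Within the enteroendocrine-like cells of the lineage-traced libraries, 54, 13, 55 and 126 in number, 2.17% of 1381 genes passed, 1.88% as lower in KO, and of the 4 members tested both granins were lower. Chga stood at 6626 and 9117 CPM in WT nTnG and at 1100 and 2016 CPM in Setdb1-KO nTnG, and Chgb at 12853 and 12979 against 3256 and 7824 CPM. The groups did not overlap for either gene. The Chga difference was -2.42 ± 0.29 (edgeR, adjusted p = 1.4e-04), and -2.10 (1.1e-05) without WT nTnG replicate 2. With no filter on low counts it was -1.74 and did not pass (0.140). For Chgb it was -1.33 ± 0.32 (0.0419), -1.23 (0.0325) without WT nTnG replicate 2, and -1.03, which did not pass (0.219), without WT nTnG replicate 1. Chgb did not pass in 4 further settings, with no filter (0.891), a mitochondrial limit of 10% (0.161), the higher UMI minimum (0.437) and non-hormone markers only (0.340).

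Within a class these libraries hold few cells and no test between genotypes was run. In enterochromaffin-like cells Chga was at 13741 and 30932 CPM in WT nTnG against 7852 and 7652 CPM in Setdb1-KO nTnG. In peptide-hormone-like cells it was at 743 and 0 (2 cells) against 820 and 300.2 CPM. The 820 CPM were 35 UMIs, 30 of them in 1 of 25 cells, and the 743 CPM were 23 UMIs, 14 of them in 1 of 23 cells. In other enteroendocrine-like cells Chga was at 9126 and 6906 against 148 and 2342 CPM. Markers of Paneth cells, the abundant secretory cells of the crypt base, gave 13754-85809 CPM in the enteroendocrine-like cells of the lineage-traced libraries and 2187-6435 CPM in the Lgr5+ ones, with UMIs for 9 of 9 markers. Paneth-like barcodes were 17.6 and 47.0% of the kept barcodes in WT nTnG against 5.90 and 2.12% in Setdb1-KO nTnG. The part of Paneth cell transcripts in the Chga and Chgb differences was not tested.

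**Figure D5:**
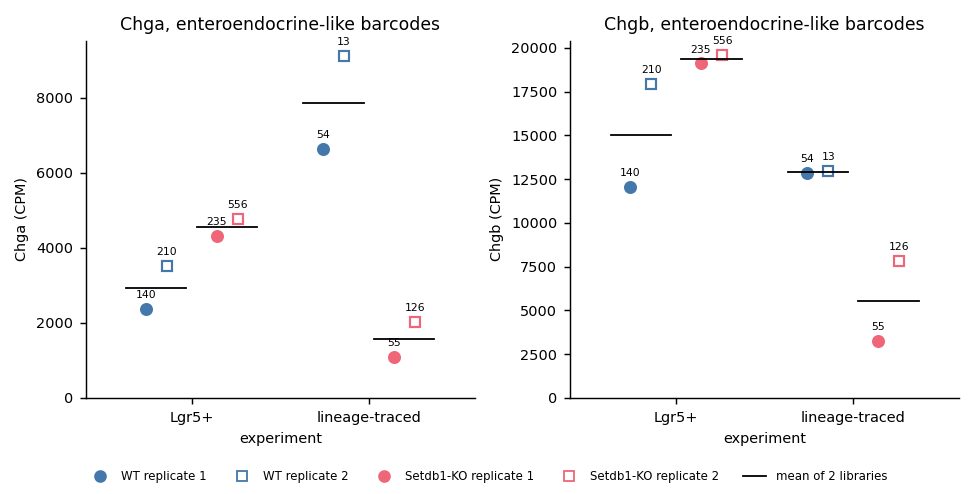
Level of Chga and Chgb, in CPM, in the enteroendocrine-like cells of each of the 8 libraries, with the number of such cells above each point, filled circles for replicate 1, open squares for replicate 2 and a line at the mean of the 2 libraries. In the Lgr5+ libraries both genes are higher in both KO libraries than in both WT libraries, and in the lineage-traced libraries lower, where 13 cells carry the value of WT nTnG replicate 2.

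The difference between the genotypes was then compared between the experiments in enteroendocrine-like cells, where the interaction called 0.312% of 7048 genes, 0.17% as lower, and 1 of the 8 members. The interaction of Chga was -2.35 ± 0.54 (log2; edgeR, adjusted p = 0.0217), where the median of all genes was 0.40, so Chga changed in KO more toward lower values in the lineage-traced than in the Lgr5+ cells. It did not pass on leaving out any of 7 of the 8 libraries in turn (adjusted p 0.0647-0.460) and passed without Setdb1-KO nTnG replicate 2 (0.00117). That of Chgb, -1.02 ± 0.58, did not pass (0.512). Whether Cre had acted in the enteroendocrine-like cells of the Lgr5+ sort was not measured here, so KO need not mean the same in both sorts. The share of enterochromaffin-like cells among enterochromaffin-like and peptide-hormone-like cells was 27.4 and 35.2% in Lgr5+WT against 39.5 and 39.4% in Lgr5+Setdb1KO, and 28.1 and 50% (the latter 2 of 4 cells) in WT nTnG against 13.8 and 27.5% in Setdb1-KO nTnG. Among all enteroendocrine-like cells it was 16.4 and 23.8% against 28.9 and 26.8% in the Lgr5+ libraries, without overlap. In the lineage-traced ones it was 16.7 and 15.4% against 7.27 and 17.5%, which overlapped. That overlap depended on the cut of 2 Tph1 UMIs. At least 1 Tph1 UMI was found in 35.2 and 30.8% of these cells in WT nTnG against 14.5 and 27.8% in Setdb1-KO nTnG, without overlap. The part of these shares in the differences over enteroendocrine-like cells was not tested. Among the granule genes Rab3c was lower (-2.12, adjusted p = 0.0348).

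Outside the enteroendocrine-like cells, Pcsk1 stood in goblet-like cells, the mucus-secreting cells, at 9.12, 7.99, 9.42 and 8.37 CPM in the Lgr5+ libraries, and in stem-like cells at 2.77, 2.43, 3.98 and 3.42 CPM. Every goblet-like value lay above every stem-like value, and 3.73-7.66% of goblet-like against 1.02-2.16% of stem-like cells had a UMI, at median depths of 4346-8387 and 3826-8281 UMIs. Droplets without a cell held 4.36-14.0 CPM. A comparison chosen after these levels were seen called 69.4% of 11628 genes, 35.1% as higher and 34.3% as lower, and in it Pcsk1 was higher in goblet-like cells by 1.62 ± 0.17 (log2; edgeR, adjusted p = 4.5e-07). Chga (-1.14 ± 0.42, adjusted p = 0.0246) and Chgb (-1.62 ± 0.34, 5.7e-04) were lower in the same edgeR comparison. Droplets without a cell held 196-497 CPM of Chgb, above the 5.46-60.1 CPM of goblet-like and 17.1-94.7 CPM of stem-like cells. For Chga the droplets held 40.7-111 CPM, against 2.14-29.8 CPM in goblet-like and 2.96-45.5 CPM in stem-like cells. The part of free RNA and of granin-rich barcodes in these 2 calls was not tested. The call of Chga was lost without Lgr5+WT replicate 2 (0.132) and without Lgr5+Setdb1KO replicate 1 (0.192), and in Lgr5+Setdb1KO replicate 2 Chga was higher in goblet-like (29.8 CPM) than in stem-like cells (25.9 CPM). Chga was also lost with DESeq2 (0.104), and both without the library block (0.227 for Chga and 0.0697 for Chgb). In the lineage-traced libraries Chga (adjusted p = 0.126) and Chgb (0.811) did not pass in this comparison, by edgeR. There Pcsk1 was at 23.7, 9.36, 9.54 and 7.71 CPM in goblet-like and 5.12, 0, 5.12 and 2.37 CPM in stem-like cells, with no overlap, and was higher in the former by 1.87 ± 0.36 (edgeR, adjusted p = 1.5e-04), where 40.8% of 8956 genes passed, 20.9% as higher and 19.9% as lower.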

How the data were processed

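The 8 single-cell libraries of GFP-sorted ileal epithelium were analysed, and the total RNA, chromatin accessibility and histone samples of the series were not used here. The authors deposited unfiltered UMI counts per gene and barcode, made per the labels with Cell Ranger 6.1.1 on mm10 (the matrix headers name an earlier version), and analysed them with Seurat 5.0.3, removing doublets; the labels also call the dissected tissue livers.

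Barcodes with at least 1000 UMIs (Lgr5+) or 500 UMIs (lineage-traced), no more than 18000 UMIs and less than 5% from mitochondrial genes were retained. Classes were set per 10000 UMIs: a barcode was enteroendocrine-like with at least 10 for 14 non-hormone markers and 2 UMIs, or at least 50 for all 29 markers and 5 UMIs. Barcodes meeting 2 or more specialised classes were left out (0.342-3.71% per library), and no doublet caller was run. Thresholds were set after seeing the files. CPM is UMIs per 1000000 UMIs of the class.

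UMIs were summed per library and class and tested with edgeR 4.0.16 (filterByExpr, TMM, quasi-likelihood test, Benjamini-Hochberg over all genes, threshold 0.05) in R 4.3.3; SEs are the log2 fold change divided by the root of F. DESeq2 1.42.0, other filters, marker sets and left-out libraries were alternatives. Scripts were tested on simulated data. The study's methods describe independent biological replicates for the Lgr5+ groups. In the genotype tests p-values measure the spread between libraries. In the class tests, with library as a block, they measure the spread of the class difference across libraries. Dispersion was estimated with information shared over genes, so a small p does not rest on the spread of that gene alone. The replicate numbers did not pair samples by the check described with the alternatives. Promoters came from RefSeq tables. Named genes were the 8 members, Setdb1, and of each list the members with the smallest p among those that passed. The members and lists were chosen with earlier results of these data known. No column of another series was present.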

Additional observations from a re-analysis of the deposited data

Results flagged for a closer look

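The genotype by experiment interaction of Chga in enteroendocrine-like cells passed the test, at -2.35 ± 0.54 on the log2 scale (edgeR, adjusted p = 0.0217; range over 14 alternatives 2.2e-04 to 0.460, with 9 of them not passing, 7 of the 8 left-out libraries included), with both Lgr5+Setdb1KO libraries above both Lgr5+WT libraries and both Setdb1-KO nTnG libraries below both WT nTnG libraries. Over all kept barcodes Chga also moved in opposite directions, with a log2 ratio of the KO to the WT mean of 1.54 in the Lgr5+ libraries and every Setdb1-KO nTnG library below every WT nTnG library, and that difference was not tested. Chgb did the same in enteroendocrine-like cells, with a log2 ratio of means of 0.37 in the Lgr5+ libraries. Its genotype test in those Lgr5+ cells did not pass (0.35 ± 0.30, edgeR, adjusted p = 0.908). Nor did it pass in Lgr5+ enterochromaffin-like (0.07 ± 0.25) or peptide-hormone-like cells (-0.18 ± 0.34). The test of the difference between the experiments, -1.02 ± 0.58, did not pass either (edgeR, adjusted p = 0.512). The mean share of enterochromaffin-like cells, which held the most Chga and Chgb, was first taken among all enteroendocrine-like cells. In the Lgr5+ libraries it went from 20.1% in WT to 27.9% in KO, without overlap (exact two-sided permutation test, p = 0.333, the smallest possible). In the lineage-traced ones it went from 16.0% to 12.4%, with overlap (exact two-sided permutation test, p = 1). That overlap depended on the cut of 2 Tph1 UMIs, and with a minimum of 1 Tph1 UMI there was none. Among enterochromaffin-like and peptide-hormone-like cells only, the lineage-traced mean went from 39.1% in WT to 20.6% in KO, without overlap. There WT nTnG replicate 2 held 2 cells of each class. The part of these shares in the Chga and Chgb differences was not tested.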

How the results depend on the processing

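Counts below are numbers of the 8 members that passed. Between enterochromaffin-like and peptide-hormone-like cells of the Lgr5+ libraries, Chga, Chgb, Pcsk1, Scg2, Scg3, Cpe and Pcsk1n kept direction and side of the threshold in 12 of 12 alternatives, and Scg5 in 9. Over all Lgr5+ cells 1 member was higher, against 4 with DESeq2, 0 with no filter, 2 with a mitochondrial limit of 10%, 0 with the higher UMI minimum and 0 with the replicate block. Lineage-traced, 1 was higher, against 0 with DESeq2 and 0 with the higher UMI minimum, and 0 were lower, against 1 with no filter and 1 with the replicate block. Within enteroendocrine-like Lgr5+ cells 0 were higher, against 1 each with DESeq2, no filter, the replicate block and non-hormone markers only (Scg5 with the block: adjusted p = 2.9e-04 by edgeR). Lineage-traced, 2 were lower, against 0 with no filter and 1 each with a mitochondrial limit of 10%, the higher UMI minimum and non-hormone markers only. Within enterochromaffin-like cells 0 were higher, against 1 with a mitochondrial limit of 10% and 1 with a minimum of 1 Tph1 UMI, and 0 lower, against 1 with that minimum. Within peptide-hormone-like cells 0 were higher, against 1 with no filter. Between the classes in the lineage-traced libraries 0 were lower, against 1 with no filter. In the genotype by class interaction 0 were lower, against 1 with no filter and 1 with a minimum of 1 Tph1 UMI, and in the genotype by experiment interaction 1 was lower, against 0 with the higher UMI minimum and 0 when barcodes of several classes were kept. The causes were not tested.

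Leaving out 1 library at a time gave 0 to 7 higher over all Lgr5+ cells, 0 to 2 higher and 0 to 1 lower over all lineage-traced cells, 0 to 1 higher in enteroendocrine-like Lgr5+ cells, 1 to 2 lower in the lineage-traced ones, 0 to 2 higher and 0 to 1 lower in enterochromaffin-like cells and 0 to 1 higher in peptide-hormone-like cells. Between the classes it gave 3 to 3 higher and 3 to 4 lower (Lgr5+) and 2 to 3 higher (lineage-traced), and 0 to 1 lower in each interaction. A group left with 1 library was assumed to vary like the others. The difference in enteroendocrine-like share ran over 1.69-4.94 (3.31) and 0.499-0.851 (0.675) percentage points. Directions turned for Scg2 over all Lgr5+ cells without Lgr5+Setdb1KO replicate 1 (-0.070, up to 1.13 without Lgr5+WT replicate 2), for Cpe between the classes in the lineage-traced libraries with no filter (-0.43) and non-hormone markers only (-0.26), and in the genotype by class interaction for Scg2 without Lgr5+WT replicate 1 (4.80, down to -5.99 without Lgr5+WT replicate 2) and Scg5 without Lgr5+Setdb1KO replicate 2 (-0.055, up to 0.79 without Lgr5+Setdb1KO replicate 1). Scg5 over all Lgr5+ cells did not pass with no filter (edgeR, adjusted p = 0.128), the higher UMI minimum (0.0875) or the replicate block (0.118). The replicate numbers were not taken as pairing, since same-numbered libraries correlated at 0.0117 (Lgr5+) and 0.309 (lineage-traced) with 2 pairs each. In the lineage-traced classes, with few cells and few UMIs a cell, Scg2, Scg3, Scg5 and Pcsk1n fell under the filter on low counts and were not tested in the main fit.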
